A study of Mus musculus with 72 samples.

Results

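Macrophages of the liver (Kupffer cells), microglia of the brain and the macrophages of kidney and heart were followed through 39 genes in a mouse feeding study of coenzyme Q10. The genes were chosen by function, as receptors, complement chains, adaptors, lysosomal proteins and oxidase subunits that macrophages transcribe, and the list was drawn up with earlier results of these data known. All 39 had a probe set among the 45037 probe sets of the array that are no controls, and together they had 67. The mice were female and of the SAMP1 strain, the senescence accelerated mouse prone 1 line, which all groups shared, so there was no group of an ordinarily ageing strain. From 4 weeks of age they ate a control diet or a diet that gave 500 mg per kg body weight per day of coenzyme Q10 in its oxidised form, ubiquinone (here Q10), or in its reduced form, ubiquinol (here QH2). They were killed after 6 or 14 months on the diet, at 7 or 15 months of age. Liver, kidney, heart and brain gave 24 groups of 3 arrays, 72 arrays in all, each hybridised with RNA of a whole organ and not of sorted cells. The mice were kept several to a cage in groupings that did not change, so that cage and diet may coincide, and the labels do not tell whether arrays of the same number in different organs came from 1 mouse. The p-values below set a difference between groups against the spread between arrays within groups, and they do not separate diet from cage.

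Macrophages take up dying cells, microbes and debris through scavenger, complement and antibody receptors, digest them in lysosomes and make superoxide with the NADPH oxidase. Kupffer cells line the liver sinusoids and carry a set of receptors of their own, among them Clec4f, Vsig4, Marco and Timd4, while microglia of the healthy brain are known for the ADP receptor P2ry12. Many genes of these cells depend on the transcription factor PU.1 (Spi1), which binds a purine-rich core sequence, and their survival depends on the growth factor receptor Csf1r. Several of the genes are shared with other leukocytes: Ptprc, Cd52, Cd53, Itgb2 and Rac2 are found in lymphocytes and neutrophils as well.

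Promoter sequences are shown for 4 members that rose in liver with Q10, to set the letters of the purine-rich core beside the values that follow; they come from the RefSeq table of mouse promoters (build GRCm38.p6), which held 29 of the 39 members and not the other 10. Each is the 250 bases before the gene's start, read 5′ to 3′ on the gene's strand, and capitals mark GAGGAAG or its reverse complement CTTCCTC. The Marco window (chr1:120505025-120505274, minus strand) held the core once, at -146 from the start. The Fcgr1 window (chr3:96293970-96294219, minus strand) held it once on the other strand, at -56. The window of Mrc1 (chr2:14229164-14229413, plus strand) held 2 matches on the other strand, the first at -168. The window of Fcer1g (chr1:171234350-171234599, minus strand), shown for contrast, held 0.
Marco: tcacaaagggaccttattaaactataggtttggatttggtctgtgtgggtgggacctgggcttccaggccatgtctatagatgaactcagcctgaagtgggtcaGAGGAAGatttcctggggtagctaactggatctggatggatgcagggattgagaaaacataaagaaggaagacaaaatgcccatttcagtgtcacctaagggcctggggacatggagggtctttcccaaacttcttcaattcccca
Fcgr1: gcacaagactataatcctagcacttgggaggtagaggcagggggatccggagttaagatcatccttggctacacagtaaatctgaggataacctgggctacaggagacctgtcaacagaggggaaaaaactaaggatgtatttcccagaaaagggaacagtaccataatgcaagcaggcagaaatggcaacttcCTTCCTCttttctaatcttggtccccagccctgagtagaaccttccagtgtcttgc
Mrc1: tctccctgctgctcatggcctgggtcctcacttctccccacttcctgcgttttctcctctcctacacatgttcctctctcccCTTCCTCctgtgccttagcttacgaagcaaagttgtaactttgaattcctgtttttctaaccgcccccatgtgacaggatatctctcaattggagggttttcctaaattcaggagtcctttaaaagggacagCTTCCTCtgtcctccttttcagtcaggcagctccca
Fcer1g: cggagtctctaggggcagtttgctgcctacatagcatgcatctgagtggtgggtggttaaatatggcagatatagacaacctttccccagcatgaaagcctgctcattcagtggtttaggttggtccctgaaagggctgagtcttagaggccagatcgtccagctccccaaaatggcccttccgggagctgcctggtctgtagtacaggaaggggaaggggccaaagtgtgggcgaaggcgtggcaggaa
Searched on both strands, GAGGAAG was present before 9 of the 29 members (31%), which were C1qc, Ctsc, Fcgr1, Fcgr3, Itgam, Laptm5, Marco, Mrc1 and Trem2, and before 3244 of 27025 genes of the table (12%). The longer form GAGGAAGT, which contains the shorter, was present before 2 members (6.9%), C1qc and Ctsc, and before 755 genes (2.79%). The 2 forms were chosen with their counts in view. A match of 7 letters is a description of the window and no evidence that a factor binds there.

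The list was first checked against the organs, since each organ has its own macrophages. Signals here are medians of the 6 control-diet arrays of an organ with their lowest and highest value, after quantile normalization of the 72 arrays together. Clec4f, a lectin that mouse Kupffer cells carry, read 559 (245 to 752) in liver and at most 25.7 on any control array of another organ. Vsig4, a complement receptor of resident macrophages, was highest in liver at 404 (158 to 604), followed by heart at 67.8 (31.1 to 98.5). The 2 ranges did not overlap, and kidney and brain lay lower still. Marco, a scavenger receptor, read 23.1 (6.14 to 72.7) in liver and at most 1.22 on any control array of another organ. P2ry12, the microglial ADP receptor, read 196 (179.7 to 227) in brain and at most 31.5 in the other organs. Trem2, a lipid receptor of microglia, stood at 41.4 (35.0 to 52.4) in brain and at most 12.2 elsewhere. On the control arrays these 5 markers thus lay highest in the organs that give the cells their names, without overlap with the other organs. Timd4 was highest in liver too, with a median of 39.7 against 17.1 in heart, and its ranges in these organs overlapped.

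The mannose receptor Mrc1 read 367 (223 to 433) in liver and 264 (244 to 284) in heart, and these ranges overlapped, whereas kidney at 53.1 (35.2 to 63.5) and brain at 25.7 (21.2 to 29.5) lay apart from both and from each other. Cd163, which takes up haemoglobin bound to haptoglobin, read 205 (154 to 265) in liver and 97.8 (89.8 to 149.9) in heart. Msr1, the class A scavenger receptor, was at 132 (107 to 158) in liver against 27.3 (19.5 to 30.2) in heart. Heart was thus the organ nearest to liver in these 3 receptors. Kidney led in 2 genes that epithelial cells also use: Cyba, a membrane subunit of the NADPH oxidase, at 3708 (3197 to 4052) against 402 (366 to 486) in heart and 128 (72.1 to 152) in liver, and Lgals3, the lectin galectin-3, at 759 (638 to 857) against 116 (63.5 to 153) in liver. Lyz2, lysozyme of myeloid cells, was highest in heart at 1092 (858 to 1485). Csf1r, the receptor for macrophage colony stimulating factor, had similar levels in the organs, with neighbouring organs overlapping.

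In a limma fit over the 72 arrays, the level of each gene in 1 organ was set against the mean of the other 3 organs, and 34 of the 39 members passed the filter on low signal. A gene was called where its p-value, adjusted by Benjamini-Hochberg over all probe sets tested, was under 0.05. Liver was higher for 29 members and lower for 2, where 82.7% of all probe sets were called (39% higher, 43.7% lower). The greatest differences, on the log2 scale with their SE, were Clec4f at 6.65 ± 0.20 (adjusted p = 1e-36), Vsig4 at 5.45 ± 0.23 and Msr1 at 4.04 ± 0.20. Brain was higher for 2 members, P2ry12 at 4.03 ± 0.23 and the lysosomal protease Ctss at 0.48 ± 0.11, and lower for 29 (85.6% of probe sets called in the fit, 38.4% higher and 47.2% lower). Kidney was higher for 12 and lower for 18 (73.1% called, 37.7% higher and 35.4% lower), led by Cyba at 4.42 ± 0.089 and Lgals3 at 3.84 ± 0.11, and heart was higher for 18 and lower for 9 (81.9% called, 41.8% higher and 40.1% lower), led by Lyz2 at 2.49 ± 0.15. Most probe sets differed between organs, so these counts serve as a map of levels. The 29 of 34 higher in liver and 29 of 34 lower in brain lay above the shares of all probe sets in those directions. The list as such was not tested. These counts include the arrays of every diet, the liver Q10 arrays among them. With the control diet only, C1qa, C1qb, Tyrobp, Fcgr3, Cd68, Lgals3, Rac2, Cd53 and Itgb2 were no longer called in liver. In brain the calls of C1qa, Tyrobp, Fcgr1, Fcgr3, Cd68 and Ncf1 were lost. No direction turned in that fit, which has fewer arrays, and the part of the diets was not tested. Without normalization, on the values as deposited, the median of all probe sets shifted by -0.94 in liver and 0.82 in brain, and the direction turned for 15 members in liver, C1qa, C1qb, Tyrobp, Fcgr3, Cd68 and Itgb2 among them, and for 9 in brain, while Clec4f, Vsig4, Msr1 and P2ry12 kept theirs.

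**Figure D1:**
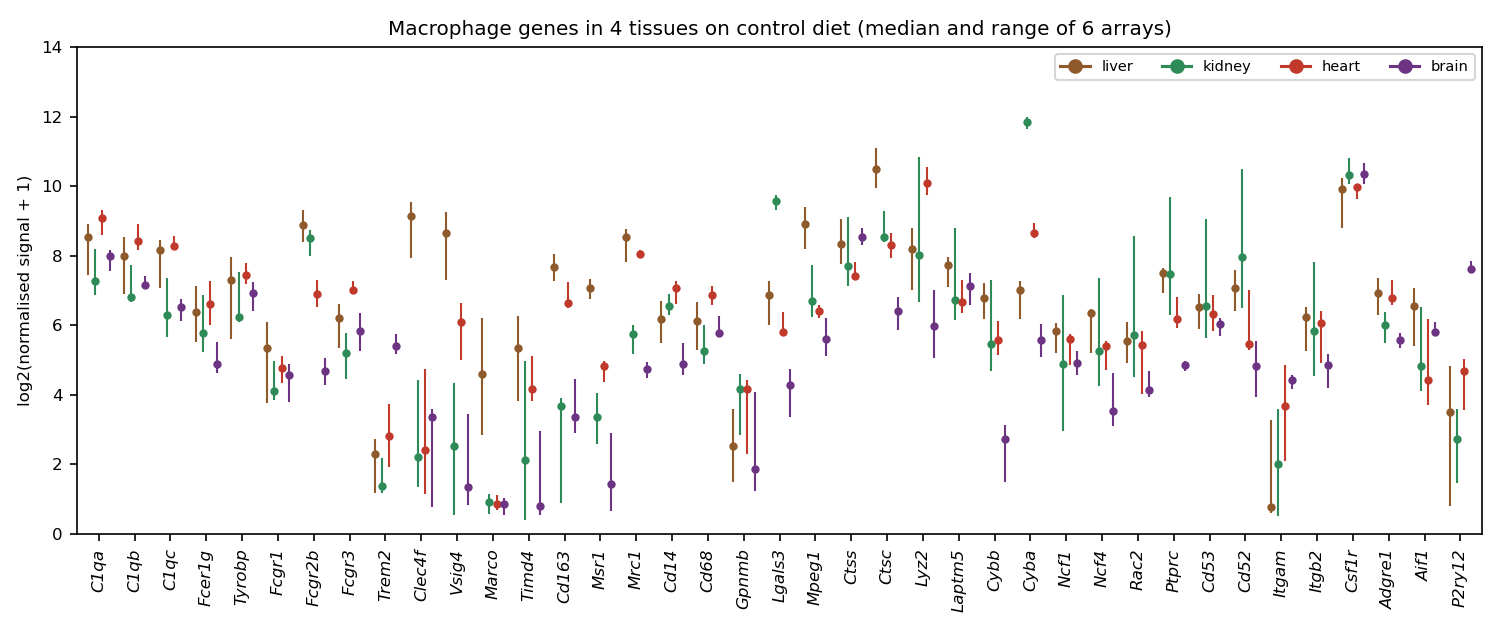
Signal of each member in liver, kidney, heart and brain on the control diet, as log2(normalised signal + 1). Points are medians and bars run from the lowest to the highest of 6 arrays, both durations together. Clec4f, Vsig4, Marco and Msr1 stand highest in liver, P2ry12 and Trem2 in brain, and Cyba and Lgals3 in kidney.

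The members moved most in liver after 14 months of Q10. Complement chains, antibody receptors, Kupffer cell receptors, scavenger receptors, lysosomal proteins, oxidase subunits and leukocyte antigens were all higher in livers of Q10-fed mice than in controls of the same age: 33 of the 36 members that passed the filter rose, and none fell (limma, adjusted p under 0.05). Of all 27022 probe sets tested, 5.98% were called and 3.73% were higher. The median change of the 36 was 2.95 on the log2 scale, where the median of all probe sets was -0.098. In 34 of the 36 the lowest Q10 array was above the highest control array, which held for 9.95% of all probe sets. The filter used the mean over the 18 liver arrays, so a gene high in 1 group could pass through that group; without a filter, 33 of 39 members were called and 38 had a positive difference. In whole organs, a greater number of macrophages and more RNA of these genes per macrophage cannot be told apart.

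C1qa, C1qb and C1qc encode the 3 chains of C1q, the first component of the classical complement pathway, and lie side by side on chromosome 4 (GRCm38.p6). Signals are given in the order of arrays 1, 2 and 3 of each group. C1qa read 239, 100 and 236 on the control arrays, 630.3, 2414 and 2100 on the Q10 arrays and 140.4, 279 and 129 on the QH2 arrays, a rise of 3.04 ± 0.43 (adjusted p = 0.000603) with Q10 against control. C1qb read 148, 65.3 and 159 on the control arrays, 424, 1713 and 2033 on the Q10 arrays and 79.8, 128 and 81.9 on the QH2 arrays, and rose by 3.29 ± 0.47 (adjusted p = 0.000633). C1qc read 159, 74.0 and 176 on the control arrays, 499.8, 1677 and 1810 on the Q10 arrays and 114, 190 and 101 on the QH2 arrays, and rose by 3.16 ± 0.41 (adjusted p = 0.00043). In each chain the first Q10 array was the lowest of its group and still above all controls, and the QH2 arrays overlapped the controls. The 2 other probe sets of C1qb gave 2.95 and 2.34.

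Fcer1g and Tyrobp are the adaptor chains through which antibody receptors and related receptors signal. Fcer1g stood at 45.5, 23.9 and 42.3 on the control arrays, 185, 469 and 868 on the Q10 arrays and 36.0, 48.2 and 24.0 on the QH2 arrays, a difference of 3.52 ± 0.46 (adjusted p = 0.000468). Tyrobp stood at 83.1, 25.0 and 99.2 on the control arrays, 336, 954 and 1342 on the Q10 arrays and 82.4, 105 and 66.8 on the QH2 arrays, a difference of 3.65 ± 0.51 (adjusted p = 0.000565). Both adaptors were highest on Q10 array 3, and no Q10 array overlapped the controls. The activating IgG receptors Fcgr1 and Fcgr3 rose by 2.44 ± 0.52 (adjusted p = 0.00886) and 2.44 ± 0.34 (adjusted p = 0.000565). For Fcgr1, a second probe set gave 0.47 and was not called. Fcgr2b, the inhibitory IgG receptor, did not pass the test: its signals were 211, 257 and 245 in controls and 279, 364 and 192 with Q10, which overlap, with a difference of 0.19 ± 0.21 (adjusted p = 0.673) and a 95% interval of -0.25 to 0.62. Its 3 other probe sets that were tested gave 0.20, -0.076 and 0.051. Trem2 was below the filter in liver, at 1.92, 2.48 and 3.27 in controls and 0.911, 2.21 and 1.81 with Q10, and its other probe set, which was tested, gave -0.24.

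Among the receptors of resident macrophages, Clec4f read 349, 147 and 422 on the control arrays, 1011, 819.5 and 2081 on the Q10 arrays and 266, 372 and 219 on the QH2 arrays, a rise of 2.10 ± 0.36 (adjusted p = 0.00231). Vsig4 read 245, 90.2 and 279 on the control arrays, 848, 1092 and 3006 on the Q10 arrays and 156, 301 and 163 on the QH2 arrays, a rise of 2.93 ± 0.46 (adjusted p = 0.00116). Marco had the greatest change of the list, from 24.1, 9.11 and 11.5 in controls to 75.8, 1237 and 1699 with Q10, with 9.31, 15.5 and 6.34 under QH2, a difference of 5.21 ± 0.87 (adjusted p = 0.00176). The first Q10 array carried a fraction of the Marco signal of the other 2 and was above each control. Its second probe set gave 4.48. Timd4, a receptor for phosphatidylserine on dying cells, went from 19.7, 8.04 and 14.3 to 46.8, 184 and 155, a rise of 2.97 ± 0.46 (adjusted p = 0.00107). Cd163 did not follow: controls read 161, 87.8 and 153 and Q10 arrays 333, 36.8 and 681, so that the second Q10 array lay below all controls while the other 2 lay above them, and the difference of 0.66 ± 0.63 (adjusted p = 0.613) was not called.

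The scavenging and phagocytosis genes that were tested all rose, and Gpnmb, a glycoprotein of phagocytes, was below the filter. Msr1 read 90.3, 65.5 and 58.1 on the control arrays, 104, 149 and 317 on the Q10 arrays and 69.9, 95.1 and 69.6 on the QH2 arrays, a rise of 1.27 ± 0.30 (adjusted p = 0.0183). Cd68, a glycoprotein of late endosomes and lysosomes, read 28.6, 20.6 and 45.3 on the control arrays, 117, 383 and 395 on the Q10 arrays and 26.1, 48.0 and 31.8 on the QH2 arrays, a rise of 3.08 ± 0.42 (adjusted p = 0.000537). Mpeg1, a pore-forming protein of phagosomes, went from 285, 177 and 344 to 979.9, 2063 and 1981 with Q10, with 297, 238 and 206 under QH2, and had 1 of the 3 smallest adjusted p-values of the list at 2.61 ± 0.31 (adjusted p = 0.00035). In all 3 the Q10 arrays were separate from both other groups. Mrc1 rose by 1.25 ± 0.21 (adjusted p = 0.00228), Cd14, the co-receptor for lipopolysaccharide, by 1.86 ± 0.36, and Lgals3 by 3.07 ± 0.49. For Msr1, 2 of 3 other probe sets were called, at 2.34 and 2.19, and the other gave 1.15 with an adjusted p of 0.078.

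Ctss, the lysosomal protease that prepares class II molecules for antigen presentation, read 260.5, 128 and 218 on the control arrays, 752, 1927 and 2128 on the Q10 arrays and 209, 211 and 179 on the QH2 arrays, a rise of 2.90 ± 0.35 (adjusted p = 0.00035). Ctsc, the protease that activates the serine proteases of granules, went from 949, 794 and 760.3 to 1772, 2103 and 2752, a smaller rise of 1.39 ± 0.17 (adjusted p = 0.00035). Lyz2 read 167, 70.7 and 166 in controls and 488, 3703 and 559 with Q10, where the second array stood far above the other 2, a rise of 2.99 ± 0.52 (adjusted p = 0.00252). The Q10 arrays of these 3 genes lay above every control. Laptm5, a lysosomal membrane protein of blood cells, rose by 2.22 ± 0.35.

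The 5 NADPH oxidase genes rose by a median of 3.32. Cybb, the catalytic subunit, read 77.3, 37.9 and 83.4 on the control arrays, 224, 858 and 747 on the Q10 arrays and 42.1, 76.7 and 38.9 on the QH2 arrays, a rise of 3.04 ± 0.40 (adjusted p = 0.000468). Cyba, its membrane partner, went from 74.8, 38.0 and 86.6 to 231, 1569 and 818, a rise of 3.39 ± 0.47 (adjusted p = 0.000595). Rac2, the small GTPase that switches the complex on, went from 25.6, 16.8 and 22.5 to 100.4, 784 and 581, with 17.8, 37.5 and 25.6 under QH2, a rise of 4.01 ± 0.56 (adjusted p = 0.000596). In each of them arrays 2 and 3 of the Q10 group stood well above array 1, which itself exceeded the controls. The cytosolic subunits Ncf1 and Ncf4 went up by 2.95 ± 0.47 and 3.32 ± 0.46, Ncf4 from 35.7, 19.5 and 45.1 to 125, 689 and 395. A second probe set of Rac2 gave 0.89 and was not called. Over the whole list, 24 further probe sets of members were tested in this comparison, each dimmer over the 72 arrays than the 1 that stands for the gene: 11 were called, all higher, and 22 had a positive difference. Besides those of Fcgr1, Fcgr2b, Trem2, Msr1 and Rac2, the further probe sets without a call were 2 of Ctsc at 0.83 and 0.91 and 1 each of Laptm5 at 0.88, Cybb at 2.50, Ncf1 at 1.66 and Ptprc at 2.27.

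The 4 tested antigens of leukocytes in general showed some of the greatest changes, with a median of 3.56. Ptprc, the common leukocyte phosphatase, read 103, 66.8 and 106 on the control arrays, 214, 1232 and 1322 on the Q10 arrays and 57.0, 107 and 78.6 on the QH2 arrays, a rise of 2.95 ± 0.48 (adjusted p = 0.00164). Cd52, a small glycoprotein of lymphocytes and macrophages, read 81.8, 44.5 and 87.1 on the control arrays, 261, 3381 and 1563 on the Q10 arrays and 65.7, 109.6 and 57.5 on the QH2 arrays, a rise of 4.01 ± 0.63 (adjusted p = 0.00116). Itgb2, the beta chain of leukocyte integrins, read 38.4, 20.1 and 39.4 on the control arrays, 121, 728 and 1164 on the Q10 arrays and 15.5, 47.6 and 20.9 on the QH2 arrays, a rise of 3.86 ± 0.60 (adjusted p = 0.00114). For these antigens Q10 array 1 lay above the controls, and arrays 2 and 3 lay higher again. The tetraspanin Cd53 went from 39.6, 30.7 and 50.3 to 147, 578 and 674, a rise of 3.26 ± 0.43. Itgam, the alpha chain that pairs with Itgb2 in macrophages, was below the filter, at 0.383, 5.34 and 0.444 in controls and 12.1, 23.6 and 21.1 with Q10. Of the lineage genes, Csf1r read 675, 290.1 and 749 on the control arrays, 1770, 2335 and 5758 on the Q10 arrays and 463, 711 and 401 on the QH2 arrays and rose by 2.44 ± 0.39 (adjusted p = 0.00119). Adgre1, the classical surface antigen of mouse macrophages, rose by 2.05 ± 0.31, and Aif1, an actin-binding protein of macrophages and microglia, by 2.89 ± 0.42. P2ry12 was not called in liver, at 1.61 ± 0.81 (adjusted p = 0.26).

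**Figure D2:**
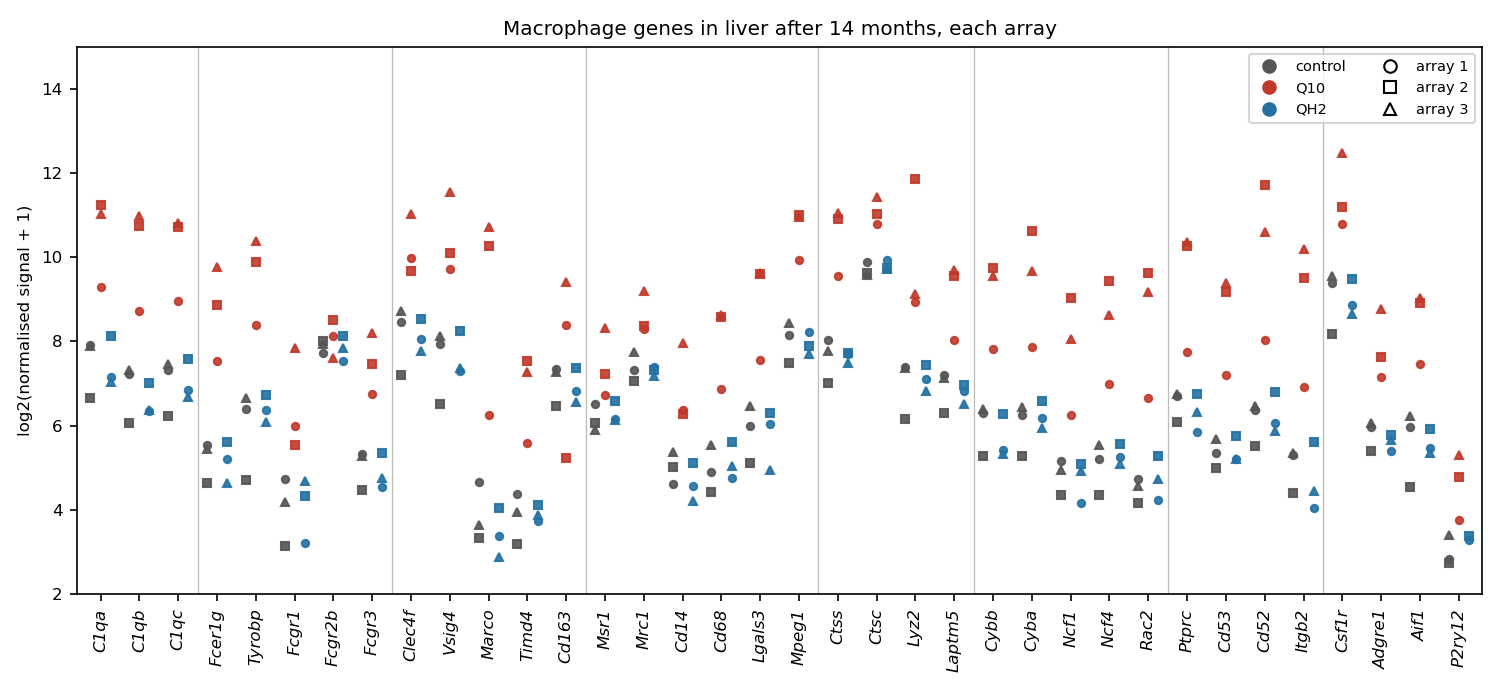
Signal of the 36 members tested in liver after 14 months, as log2(normalised signal + 1), with 1 point per array (control grey, Q10 red, QH2 blue; circles, squares and triangles for arrays 1, 2 and 3). Vertical lines separate the role groups. The red points lie above the grey and blue ones for 34 of the 36 genes, with Fcgr2b and Cd163 as exceptions, and the red circle is the lowest red point for most of the genes.

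The 3 Q10 livers were not alike. Against the mean of the same-age controls, the tested members stood at a median of 1.86 on array 1, 3.65 on array 2 and 3.5 on array 3, with 36, 35 and 35 of the 36 above every control (26.9%, 30% and 27.7% of all probe sets). QH2 arrays gave medians of -0.15, 0.36 and -0.22. After 6 months, 1 Q10 array stood out, with 29 of 36 members above every control (27.6% of all probe sets) and a median of 0.68, and the other Q10 and QH2 arrays had medians from -0.46 to -0.06. Genes of other white blood cells stood high on the same arrays. The summed signal of a list of neutrophil genes was 1158, 471 and 463 in controls and 745, 17590 and 6918 with Q10, with 6 of 10 tested genes called higher. A B cell list summed to 104, 80.1 and 122 and 272, 3842 and 1059, with 6 of 7 called higher. For T cells the sums were 55.0, 50.2 and 66.3 and 127, 297 and 239, with 2 of 5 called, and for genes of cell division 96.2, 75.3 and 149.8 and 232, 2213 and 1072, with 5 of 7. The hepatocyte list summed to 59200, 58740 and 57730 and 56850, 48450 and 57410, with 0 of 7 called. Lists outside the blood cells were also high on Q10 array 2. The fibroblast and stellate cell list summed to 1060, 912 and 1024 in controls and 1188, 4785 and 1624 with Q10. An adipocyte list summed to 59.56, 61.65 and 84.5 and 54.27, 808.1 and 135.8, and the part of these cells was not tested. The ratio of the 3' to the 5' probe set of Actb, a sign of RNA integrity that is lower where RNA is more intact, was 3.49, 3.88 and 4.11 in controls, 3.04, 1.59 and 1.98 with Q10, and had a mean of 5.35 under QH2. The part of the other blood cells and of RNA integrity in the rise was not tested beyond a covariate: with the Actb ratio in the model, 0 members were called and their median was 1.97. Without Q10 arrays 2 and 3, which leaves 1 Q10 array, the median was 1.90 and all 36 differences were positive. A fit on the compared arrays alone called 0. For the fits with 0 calls the share of all probe sets called is not given. These counts therefore do not tell whether the members alone lost their calls.

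**Figure D3:**
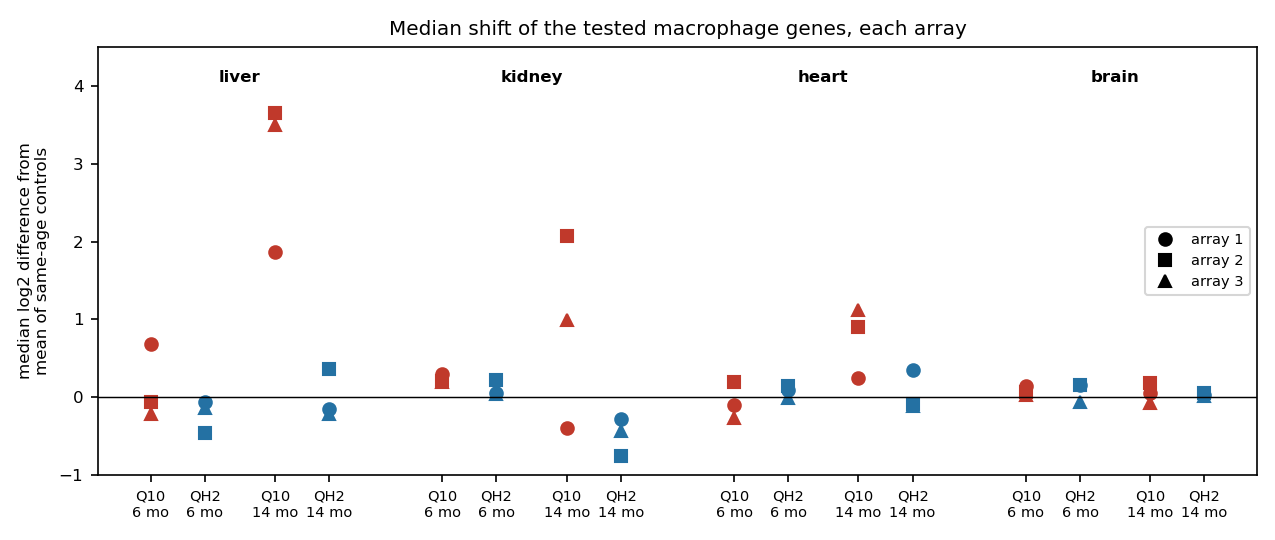
Median log2 difference of the tested members from the mean of the controls of the same duration, for each Q10 array (red) and QH2 array (blue) in liver (36 members), kidney (29), heart (36) and brain (31). Marker shapes give the array number and the horizontal line is 0. Liver Q10 arrays after 14 months lie between 1.86 and 3.65, kidney and heart Q10 arrays after 14 months are spread, and brain arrays lie near 0.

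With QH2 against control in liver after 14 months 0 of 36 were called by limma, 0 had an unadjusted p under 0.05, and 0% of all probe sets were called. The median was -0.048. The 95% intervals bounded the difference to -0.76 to 0.76 for Clec4f, -0.72 to 0.56 for Mpeg1 and -0.27 to 0.46 for Ctsc, but only to -2.26 to 1.37 for Marco. Set directly against Q10, at the same dose and duration, the reduced form gave lower values for 33 of the 36 members (9.6% of all probe sets called, 4.82% lower), with a median of -2.89 and no overlap for 34 (10.9% of all probe sets). Marco differed most, at -5.66 ± 0.87 (adjusted p = 0.00107), followed by Itgb2 at -4.17 ± 0.60, Cd52 at -3.88 ± 0.63, Rac2 at -3.75 ± 0.56 and C1qb at -3.58 ± 0.47. Of 24 further probe sets of members tested, 12 were called, all lower, and 3 had a positive difference. This comparison uses the same Q10 arrays as that with the controls and is not a second measurement of them. The 2 compounds differ in the redox state of the ring: ubiquinone carries a quinone and ubiquinol the corresponding hydroquinone.

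After 6 months no member was called in liver for either form. By limma, 0 of 36 were called with Q10 (0.807% of all probe sets; 0 members with an unadjusted p under 0.05), 0 with QH2 (0%; 1 member, Timd4) and 0 between the forms (0.988%; 0 members), with medians of 0.10, -0.22 and -0.39. The Q10 effect was greater after 14 than after 6 months for 28 of the 36 by a test of that difference (2.31% of all probe sets called, 0.988% higher), with a median of 2.69. Examples are Ncf4 at 3.88 ± 0.65 (adjusted p = 0.00512), Rac2 at 4.30 ± 0.80 (adjusted p = 0.00864), Mpeg1 at 2.54 ± 0.43 (adjusted p = 0.00539) and Ctsc at 1.38 ± 0.25 (adjusted p = 0.00693). Marco, although greatest in size, missed the threshold there, at 4.46 ± 1.23 (adjusted p = 0.0612). Of 24 further probe sets of members tested for this difference, 4 were called, all higher, and 21 were positive. For the QH2 effect 0 were called by limma (0% of all probe sets), 0 had an unadjusted p under 0.05, and the median was 0.21. The 28 fell to between 8 and 12 when control array 2 or Q10 array 3 of 14 months, or Q10 array 2 or 3 of 6 months, was left out, and to 0 without Q10 arrays 2 and 3 of 14 months or with the Actb ratio in the model.

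Between 6 and 14 months on the control diet, 3 members fell in liver and none rose (7.32% of all probe sets called, 1.87% lower). Ctsc went from 1424, 1753 and 1868 to 949, 794 and 760.3, a change of -1.01 ± 0.17 (adjusted p = 0.00122). Fcgr2b went from 447, 427 and 366 to 211, 257 and 245, a change of -0.80 ± 0.21 (adjusted p = 0.0228), and Mrc1 from 281, 254 and 283 to 158, 132 and 214, a change of -0.72 ± 0.21 (adjusted p = 0.0473). The 2 durations did not overlap in these 3 genes. The median over the 36 was -0.46, 30 had a negative difference, and the Actb ratio rose over the same span from a mean of 2.93 to 3.83, whose part was not tested beyond the covariate, under which 1 of the 3 was called. Leaving out control array 1 or 2 of 6 months or array 1 of 14 months gave 1 call. On the Q10 diet 31 of 36 rose over the same span (12.2% of all probe sets called, 5.69% higher), with a median of 2.25, and on QH2 0 were called (2.33%; 5 with an unadjusted p under 0.05, all lower), Ctsc coming nearest at -0.64 ± 0.17 (adjusted p = 0.0575). Of 24 further probe sets of members tested over time on Q10, 9 were called higher and 2 lower. The rise on Q10 and the difference from the controls rest on the same 3 Q10 arrays.

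Genes that work with the members were read from further lists. Of 13 tested growth factors, receptors and transcription factors of macrophages, 4 rose in liver with Q10 after 14 months and none fell, with a median of 0.83. They were Csf2rb, the shared beta chain of cytokine receptors, at 3.03 ± 0.33 (adjusted p = 0.00035), Spi1 at 2.66 ± 0.39 (adjusted p = 0.000746), the transcription factor Irf8 at 2.04 ± 0.38 (adjusted p = 0.00394) and the receptor chain Csf2ra at 1.76 ± 0.40 (adjusted p = 0.0144). Of 7 other Kupffer cell genes 6 rose, with a median of 1.92. Cd5l, a secreted protein of tissue macrophages, rose by 3.22 ± 0.41 (adjusted p = 0.00035), the folate receptor Folr2 by 2.50 ± 0.38, the ficolin Fcna by 2.18 ± 0.33, Hmox1, which breaks down haem, by 1.75 ± 0.30, and the secreted cytokine inhibitor Il18bp by 1.92 ± 0.34. Among 13 tested genes of macrophage activation 8 rose, with a median of 1.08, including the receptor Axl at 2.00 ± 0.37 and the cytokine Il1b at 1.99 ± 0.47. Of 4 monocyte genes 2 rose, Plac8 at 2.85 ± 0.43 and Nr4a1 at 1.10 ± 0.29, and of 7 microglial genes 1 rose, P2ry13 at 2.76 ± 0.52. Kupffer cell genes from outside the members thus moved in the same direction as the members. Neutrophil genes rose as well, S100a8 by 4.07 ± 1.10 and Mpo by 3.65 ± 0.97, as did the B cell genes Ms4a1 at 3.72 ± 0.70 and Cd79b at 3.58 ± 0.61.

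The difference between liver and the other organs was tested in the joint fit. The Q10 effect after 14 months was greater in liver than in the mean of kidney, heart and brain for 24 of 34 tested members (6.57% of all probe sets called, 4.45% higher). The greatest differences were those of Itgb2 at 2.81 ± 0.62 and Rac2 at 2.70 ± 0.66. By p-value Cyba led with 2.60 ± 0.31 (adjusted p = 1.24e-07), followed by Csf1r at 1.85 ± 0.28 (adjusted p = 9.02e-06), Adgre1 at 1.63 ± 0.26 (adjusted p = 2.59e-05) and Lgals3 at 2.40 ± 0.39. The adaptors Fcer1g and Tyrobp differed by 2.66 ± 0.46 and 2.62 ± 0.44. Not called were Cd52 at 1.69 ± 0.78 (adjusted p = 0.202) and Ptprc at 1.28 ± 0.56 (adjusted p = 0.173), 2 antigens that were also high on Q10 arrays of kidney and heart, and Clec4f at 1.43 ± 0.69 (adjusted p = 0.224). QH2 against Q10 was lower in liver than elsewhere for 24 (8.54% called, 4.83% lower). Without liver Q10 array 3 of 14 months that second count was 15, and without Q10 arrays 2 and 3 of every organ the counts were 6 and 7.

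In kidney 29 members were tested, and the Kupffer cell receptors Clec4f, Vsig4, Marco, Timd4 and Cd163 were below the filter, as were Msr1, Gpnmb, Trem2, Itgam and P2ry12. Between 6 and 14 months on the control diet 9 members rose and none fell (9.27% of all probe sets called, 4.61% higher), with a median of 0.76. Rac2 went from 24.5, 23.4 and 21.4 to 192, 83.5 and 399, a rise of 2.96 ± 0.59 (adjusted p = 0.00673). Cd52 went from 127, 93.4 and 106 to 901, 403 and 1572, a rise of 2.93 ± 0.59 (adjusted p = 0.00715). Lyz2 went from 163, 173 and 106 to 1168, 372 and 1979, a rise of 2.71 ± 0.61 (adjusted p = 0.0122). In each gene arrays 1 and 3 of 14 months were high and array 2 was the lowest, though above all arrays of 6 months. Ptprc went from 121, 80.8 and 106 to 710.5, 251 and 890.5, a rise of 2.41 ± 0.59 (adjusted p = 0.0186). Ncf4, Cd53, Itgb2, Laptm5 and Cybb rose by 2.12, 2.20, 2.13, 1.96 and 1.73. Of 15 further, dimmer probe sets of members tested here, 0 were called higher and 1 lower, and 10 had a positive difference. Those of Rac2, Laptm5 and Cybb were not called. None of the 3 C1q chains, the 5 antibody receptors and adaptors or the 5 scavenging genes that were tested was called, and C1qb read 114, 115 and 118 and then 224, 106 and 216, with overlap.

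The genes that rose in kidney from 6 to 14 months on the control diet included Cd52, Ptprc, Cd53, Itgb2 and Rac2, which lymphocytes and neutrophils share. The others were Lyz2, Laptm5 and the oxidase subunits Ncf4 and Cybb. A B cell list summed to 114, 108 and 96.3 in controls after 6 months and 871, 401 and 1515 after 14 months, with 5 of 8 tested genes higher. A T cell list summed to 214, 201 and 232 and then 705, 328 and 991, with 2 of 8 higher. These sums were highest on the same array 3 and lowest on array 2, and their part in the result was not tested. Of the macrophage activation genes 1 of 15 rose, and of the other Kupffer cell and microglial genes none did. Without control arrays 1 and 3 of 14 months 0 members were called and the median was 0.14. Leaving out 1 array at a time gave 2 to 5 calls without any 1 control array of 6 months or without array 1 or 3 of 14 months, and Rac2 and Cd52 were called each time.

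On the Q10 diet 19 members rose and 1 fell in kidney over the same span (27.9% of all probe sets called, 12.2% higher). Ncf4 went from 10.1, 22.5 and 23.0 to 71.9, 362 and 281, a rise of 3.40 ± 0.48 (adjusted p = 0.00011). Rac2 went from 18.1, 36.1 and 26.1 to 126, 1115 and 474, a rise of 3.93 ± 0.59 (adjusted p = 0.000181). Cd52 went from 153, 154 and 139 to 414, 4048 and 2286, a rise of 3.39 ± 0.59 (adjusted p = 0.000545). All Q10 arrays of 14 months were above those of 6 months in these genes, the second being the highest. Here the C1q chains were among those called, C1qc at 1.52 ± 0.45 (adjusted p = 0.0176), C1qb at 1.35 ± 0.41 and C1qa at 1.35 ± 0.48, as were Tyrobp at 1.32 ± 0.41, Mpeg1 at 2.00 ± 0.42, Ctss at 1.97 ± 0.43 and Aif1 at 1.90 ± 0.66. For C1qb the first Q10 array of 14 months, in 135, 706 and 449, lay within the values of 6 months, 142, 139 and 131. Cyba, which kidney epithelium also holds, fell by 0.30 on the log2 scale, from 3890, 4110 and 3856 to 2978, 3527 and 3153 (adjusted p = 0.00697). Of 15 further probe sets of members tested, 5 were called higher and 2 lower, and 11 had a positive difference. Probe sets of Rac2, Cybb and Laptm5 were among those not called. On QH2 0 members were called (10.1% of all probe sets; 1 with an unadjusted p under 0.05, Cd52). Whether the rise with age differed between the diets was tested directly, and 0 of 29 were called for either form (0.0074% and 0% of all probe sets; 0 and 1 members with an unadjusted p under 0.05 by limma). Genes of other white blood cells were high on the same arrays: the B cell list summed to 107, 127 and 114 after 6 months and 361, 2990 and 2468 after 14 months, and the T cell list to 273, 252 and 161 and then 228, 2974 and 465. The Actb ratio of the 3 Q10 arrays of 14 months was 3.22, 1.64 and 2.37, so that the array with the lowest ratio had the highest signals. The part of these cells was not tested, and with the Actb ratio in the model 24 members were called. Without Q10 arrays 2 and 3 of 14 months 4 members were called, among them Cyba, Ncf4 and Rac2, and C1qa, C1qb, Tyrobp, Cd68 and Aif1 turned to differences between -0.19 and -0.017.

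Against same-age controls, Q10 gave 0 calls in kidney after 14 months (0.666% of all probe sets; 8 members with an unadjusted p under 0.05), although 28 of 29 differences were positive and the median was 0.82. The members stood at medians of -0.39, 2.07 and 0.99 on the 3 Q10 arrays, with 1, 26 and 23 of 29 above every control (27.7%, 24.5% and 26.5% of all probe sets). Mpeg1 came nearest, from 226, 129 and 224 to 153, 1061 and 521, at 1.23 ± 0.42 (adjusted p = 0.211). QH2 likewise gave 0 calls (0%; 1 with an unadjusted p under 0.05), with a median of -0.51. Between the forms 9 members were lower with QH2 (5.96% of all probe sets called, 2.01% lower), with a median of -1.39. Rac2 read 126, 1115 and 474 with Q10 and 51.9, 88.3 and 100.5 with QH2, a difference of -2.38 ± 0.59 (adjusted p = 0.0251). Mpeg1 read 114, 143 and 137 with QH2, a difference of -1.74 ± 0.42 (adjusted p = 0.0232). Ctss, Cd52, Lyz2, Cybb, Ncf4, C1qb and Csf1r differed by -1.74, -2.16, -2.11, -1.96, -1.84, -1.44 and -0.73. Of 15 further probe sets of members tested, 1, of C1qb, was called lower, and 3 had a positive difference. Those of Cybb, Csf1r and Rac2 were not called. The 9 calls depended on single arrays: 23 without Q10 array 1, 0 when Q10 array 2 or Q10 array 3 was left out, and 1, 5 and 1 when QH2 arrays 1, 2 and 3 were left out in turn. Against the controls, leaving out Q10 array 1 gave 16 calls. After 6 months 0 members were called with Q10 (0% of all probe sets), QH2 (0.192%) or between them (0.3%), with 0, 1 and 1 at an unadjusted p under 0.05 by limma.

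**Figure D4:**
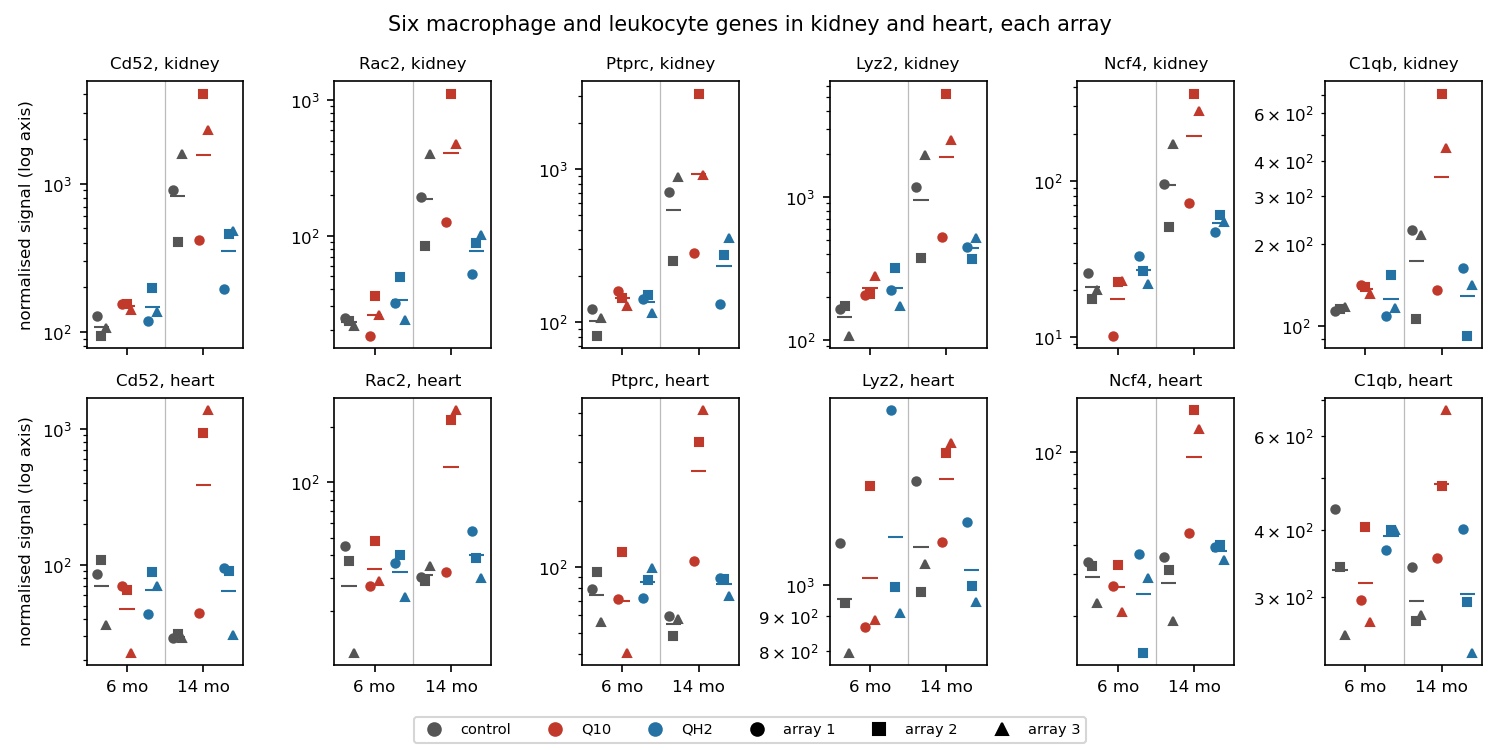
Normalised signal on a log axis of Cd52, Rac2, Ptprc, Lyz2, Ncf4 and C1qb in kidney (upper row) and heart (lower row), with 1 point per array and short lines for the group mean on the log scale; colours give the diet (control grey, Q10 red, QH2 blue) and shapes the array number. Kidney signals of the first 5 genes lie higher after 14 months than after 6 on the control and Q10 diets, with Q10 array 2 highest; in heart Q10 arrays 2 and 3 of 14 months stand above the rest for Cd52, Rac2, Ptprc and Ncf4.

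In heart 36 members were tested, and none was called with Q10 against control after 14 months (0% of all probe sets), though 24 had an unadjusted p under 0.05, all higher, and 35 of 36 differences were positive, with a median of 0.76. For counts at an unadjusted p, here and elsewhere, the share of all probe sets at that threshold is not given. Such counts therefore do not tell whether the members exceeded that share. The groups did not overlap for 18 members, against 7.29% of all probe sets. Ctsc read 279, 215 and 264 in controls and 369, 586 and 666 with Q10, a difference of 1.06 ± 0.17 (adjusted p = 0.0774). Ptprc read 59.4, 48.2 and 58.0 and 107, 371 and 517, a difference of 2.29 ± 0.41 (adjusted p = 0.0774). Cd52 read 29.2, 30.9 and 29.2 and 44.2, 927 and 1369, at 3.65 ± 0.82 (adjusted p = 0.0966), and Rac2 30.4, 29.2 and 35.0 and 32.6, 218 and 246. For the latter 2 Q10 array 1 was close to the controls and arrays 2 and 3 were far above. A B cell list summed to 111, 115 and 117 in controls and 147, 1344 and 2488 with Q10, and its part was not tested. Leaving out Q10 array 1 gave 13 calls. QH2 gave 0 calls against control (2 with an unadjusted p under 0.05) and 0 against Q10 (24 with an unadjusted p under 0.05, all lower; median -0.69), where 0% and 0% of all probe sets were called by limma. Leaving out Q10 array 1 or QH2 array 1 gave 16 or 12 calls between the forms. After 6 months there were 0 calls with Q10 (0%), QH2 (0%) or between them (0.0666%), with 0, 1 and 2 at an unadjusted p under 0.05.

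Over time on the Q10 diet 16 members rose in heart and none fell (10.6% of all probe sets called, 5.06% higher). Cd163 went from 68.5, 85.7 and 54.8 to 125, 216 and 146, a rise of 1.19 ± 0.22 (adjusted p = 0.0018). Vsig4 went from 22.9, 38.1 and 36.8 to 71.3, 98.9 and 147, a rise of 1.64 ± 0.31 (adjusted p = 0.00257). C1qa went from 364, 503 and 345 to 583, 789 and 860.5, a rise of 0.88 ± 0.18 (adjusted p = 0.00442). These markers of resident macrophages were above their values of 6 months on every Q10 array. Ncf4 went from 26.9, 32.9 and 20.8 to 45.0, 149.9 and 124, a rise of 1.80 ± 0.39 (adjusted p = 0.00591), and Ctss from 115, 201 and 126 to 208, 337 and 403, a rise of 1.09 ± 0.24 (adjusted p = 0.00614). Tyrobp went from 130.1, 169 and 128 to 156, 286 and 371, a rise of 0.85 ± 0.26 (adjusted p = 0.0395). The remaining calls were Cd52 at 3.00, Ptprc at 1.96, Rac2 at 1.82, Itgb2 at 1.36, Cd53 at 1.18, Laptm5 at 1.15, Fcgr2b at 0.98, C1qc at 0.89, Ctsc at 0.83 and Cyba at 0.78. Of 19 further probe sets of members tested, 4 were called, all higher, and 17 had a positive difference. Those of Laptm5 and Ctsc were not called. On the control diet 0 were called (2.06%; 5 with an unadjusted p under 0.05), Vsig4 having the smallest p at 0.86 ± 0.31 (adjusted p = 0.163). On QH2 1 rose (2.24% of all probe sets called, 1.37% higher), Lgals3, from 28.2, 50.0 and 37.1 to 65.9, 178 and 79.7, at 1.36 ± 0.34 (adjusted p = 0.0416). It was called in 1 of 6 fits that each left out 1 of the arrays compared, and was not called without the intensity trend, without the filter or with only the arrays compared. Whether the change over time differed between diets was tested, and no member was called: 0 of 36 for Q10 (0% of all probe sets; 17 members with an unadjusted p under 0.05, all higher, by limma) and 0 for QH2 (0%; 3 members). The 16 calls became 9 without Q10 array 3 of 6 months, 7 or 8 without Q10 array 2 or 3 of 14 months, and 0 without both of these, when Rac2 and Cd52 turned to -0.044 and -0.099. B cell genes moved over the same span, 5 of 7 being called higher with a median of 3.06, and their part was not tested.

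In brain 31 members were tested, and none was called between diets. After 14 months 0 were called with Q10, with QH2 or between the forms (0%, 0.0111% and 0% of all probe sets), with 3, 0 and 2 at an unadjusted p under 0.05 by limma. Ptprc had the smallest p with Q10, reading 51.6, 46.4 and 46.8 in controls and 50.9, 119.5 and 108 with Q10, with the first array among the controls, at 0.84 ± 0.24 (adjusted p = 0.759). Cd52 read 75.7, 63.5 and 57.6 and 71.5, 224 and 158, again with overlap. The intervals for microglial genes were narrow, -0.20 to 0.17 for P2ry12, -0.090 to 0.28 for Csf1r and -0.49 to 0.21 for Trem2. After 6 months 0 were called in the 3 comparisons (0%, 0% and 0% of all probe sets), with 4, 5 and 2 at an unadjusted p under 0.05.

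Some members changed between 6 and 14 months in brain, and their counts are set beside the share of all probe sets. On the control diet 10 rose and 2 fell between 6 and 14 months, where 32.6% of all probe sets were called (16% higher, 16.6% lower), and the 12 of 31 members called are near that share, with a greater part of them higher. The Actb ratio fell over the same span, from a mean of 1.84 to 1.69. With it in the model 4 members were called, among them Mpeg1, Lyz2 and Cyba, while Cd52, Lgals3, Cd14, C1qa, C1qc, Ctss, Ctsc, P2ry12 and Csf1r were not. Lyz2 went from 61.4, 58.0 and 54.0 to 197, 148 and 137, a rise of 1.44 ± 0.16 (adjusted p = 2.44e-06). Cd52 went from 33.8, 23.2 and 27.1 to 75.7, 63.5 and 57.6, a rise of 1.21 ± 0.29 (adjusted p = 0.00381). Mpeg1 went from 62.2, 56.5 and 65.3 to 117, 101 and 91.4, a rise of 0.74 ± 0.17 (adjusted p = 0.00239). All 3 arrays of 14 months exceeded those of 6 months in these genes. Cyba went from 65.4, 55.3 and 57.4 to 105, 101 and 88.2, a rise of 0.71 ± 0.15 (adjusted p = 0.00133). Lgals3 went from 27.6, 18.8 and 14.8 to 43.1, 37.5 and 32.8, a rise of 0.90 ± 0.28 (adjusted p = 0.0199), and Cd14 from 38.9, 38.0 and 45.5 to 73.9, 67.4 and 50.8, a rise of 0.63 ± 0.17. Smaller rises were called for Ctsc at 0.42, C1qc at 0.39, Ctss at 0.34 and C1qa at 0.30. P2ry12 fell, from 327, 331 and 304 to 273, 267 and 273, at -0.24 ± 0.089 (adjusted p = 0.045), and so did Csf1r, from 1794, 1536 and 1577 to 1496, 1364 and 1276, at -0.25 ± 0.088 (adjusted p = 0.0378). Their direction turned on the values as deposited, where the differences were 0.175 for P2ry12 and 0.217 for Csf1r. Both were smaller than the rise of 0.33 in the median of all probe sets there. With arrays scaled to one trimmed mean P2ry12 was still called lower and Csf1r was not called.

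On the Q10 diet 11 members rose and 1 fell in brain (28.5% of all probe sets called, 14.4% higher and 14.1% lower), and on QH2 7 rose and 1 fell (34.7%, 17.2% higher and 17.5% lower). The 12 of 31 called on Q10 were a greater share than that of all probe sets, and the 8 of 31 on QH2 a smaller one. Lyz2 went from 59.4, 67.4 and 65.6 to 158, 184 and 143 with Q10 and from 72.9, 70.0 and 54.4 to 149.5, 186 and 196 with QH2, rises of 1.31 ± 0.16 (adjusted p = 9.54e-06) and 1.42 ± 0.16 (adjusted p = 2.62e-06). Lgals3 went from 19.0, 25.2 and 17.3 to 35.6, 40.2 and 51.5 and from 10.6, 11.9 and 18.3 to 42.8, 55.3 and 36.1, rises of 1.01 ± 0.28 (adjusted p = 0.0108) and 1.66 ± 0.28 (adjusted p = 0.000179). Neither gene overlapped between durations. Mpeg1 rose by 0.65 ± 0.17 and 0.68 ± 0.17, Cyba by 0.80 ± 0.15 and 0.52 ± 0.15, Cd52 by 1.50 ± 0.29 and 0.91 ± 0.29, and Ctss by 0.42 ± 0.11 and 0.33 ± 0.11. Fcer1g was called with both forms, at 0.83 ± 0.26 (adjusted p = 0.0206) and 0.88 ± 0.26 (adjusted p = 0.0116), and gave 0.63 ± 0.26 (adjusted p = 0.0646) in controls. With Q10 Ptprc rose by 1.04 ± 0.24 (adjusted p = 0.00349), C1qa by 0.41 ± 0.11, Laptm5 by 0.51 ± 0.16 and Ctsc by 0.46 ± 0.15. P2ry12 fell with both, at -0.31 ± 0.089 (adjusted p = 0.0139) and -0.28 ± 0.089 (adjusted p = 0.0188), and on the values as deposited these differences were 0.262 and 0.223. Whether the change with age differed between diets was tested, and 0 of 31 were called for either form (0% and 0.0296% of all probe sets; 1 and 2 members with an unadjusted p under 0.05 by limma). Trem2 and Tyrobp, partners in microglial signalling, were not called on any diet, at -0.21, 0.023 and 0.14 for Trem2 and 0.28, 0.10 and 0.38 for Tyrobp. C1qb was called on no diet by its brightest probe set, and a second probe set rose on all 3, by 0.61, 0.74 and 0.53.

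Further microglial genes did not move as a group in brain: 0 of 10 tested rose on the control diet, 1 on Q10 (Sall1, a microglial transcription factor, at 0.74 ± 0.21 (adjusted p = 0.0128)) and 2 on QH2 (Sall1 and the receptor Gpr34, at 0.57 ± 0.21 and 0.45 ± 0.15). Among regulators, Maf rose on each diet, by 1.21 ± 0.18, 1.07 ± 0.18 and 0.85 ± 0.18, and Csf2ra fell, at -0.97 ± 0.16, -0.61 ± 0.16 and -0.74 ± 0.16. Of the activation genes, Cd9 and the lysosomal protease Ctsz rose on each diet, on control at 0.49 ± 0.12 and 0.38 ± 0.098, and Lpl, a lipase that neurons also hold, fell, at -0.54 ± 0.12 there. An astrocyte list had 3 of 5 genes higher on each diet, and its part in the rises was not tested. Leaving out 1 array at a time gave 6 to 11 calls on the control diet, with Mpeg1, Lyz2, Cyba and Cd52 called each time. The counts of 6 and 7 came without array 3 of 6 months or any 1 array of 14 months, and on QH2 leaving out array 3 of 6 months gave 4.

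**Figure D5:**
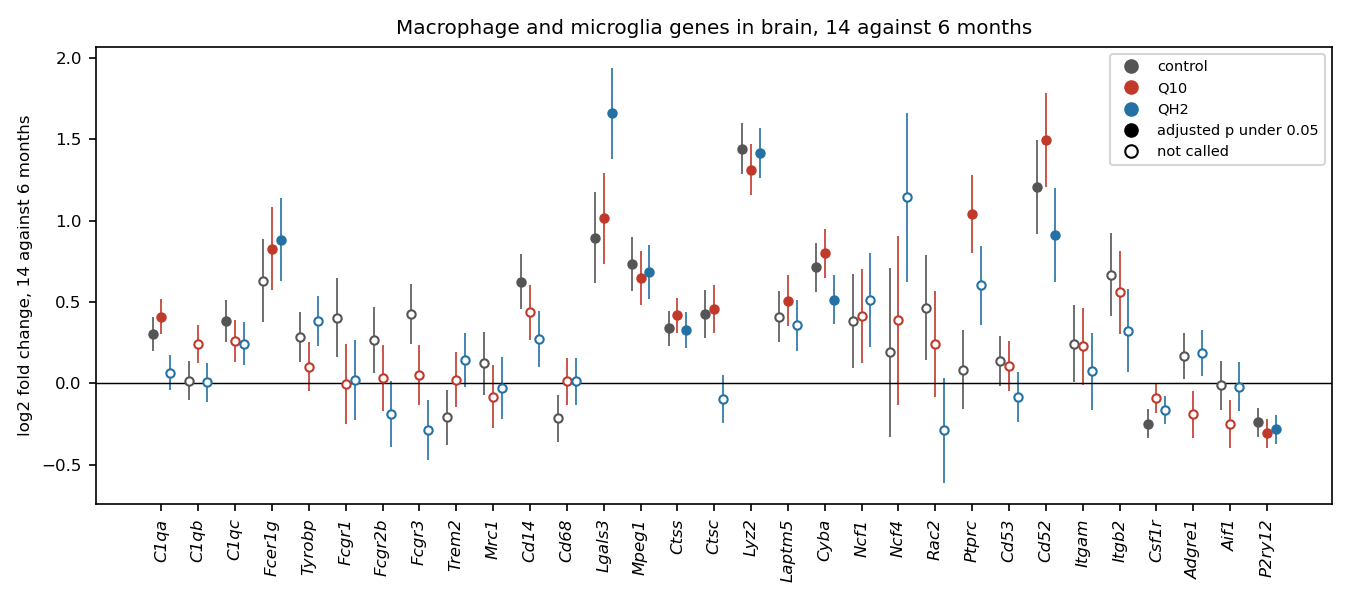
Log2 fold change between 6 and 14 months in brain for the 31 tested members, with the standard error of the fit as bars, on the control (grey), Q10 (red) and QH2 (blue) diets, 3 arrays per group. Filled points have an adjusted p under 0.05. Lyz2, Cd52, Lgals3, Mpeg1, Cyba and Ctss are filled and above 0 on all 3 diets, and P2ry12 is filled and below 0 on all 3.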

How the data were processed

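RNA of whole organs had been hybridised to Affymetrix mouse arrays, and the intensity table deposited by the authors holds 1 linear value per probe set and array, made with GCOS per the submitters' processing notes (version and scaling not given in the sources used here). Liver arrays had mean signals of 84.6 to 172, kidney arrays 132 to 262, heart arrays 108 to 279 and brain arrays 140 to 279, and the number of arrays limits the precision. No 2 arrays were identical (same-group correlations 0.89 to 0.956). Gene symbols came from the platform annotation: 34945 of 45037 probe sets had 1 symbol, 932 several and 9160 none. Within each tissue the 18 arrays were quantile normalized, log2(signal + 1) was taken, and the 27022 probe sets with a mean above the 40th percentile were fitted with limma 3.58.1 (R 4.3.3), with 1 mean per group and an intensity trend. All fold changes are on that scale, which understates changes of dim genes, and are given ± SE of the fit. There were 11 comparisons in each of 4 tissues and 6 over all 72 arrays, with p-values adjusted by Benjamini-Hochberg over all probe sets tested. An exact permutation test of 3 against 3 arrays cannot go below 0.1 and was not used. On simulated data for Q10 against control after 14 months, 100 genes changed 2-fold and 100 changed 4-fold among 27022, the liver fit recovered 26 of the 2-fold and 61 of the 4-fold genes (11 false calls), the kidney fit 53 and 91 (7 false), the heart fit 42 and 74 (9 false) and the brain fit 65 and 94 (17 false). The simulated noise was independent between genes, without shifts shared by many genes of an array, so these figures do not cover such shifts. Each simulated gene had the same spread in all groups. The figures thus do not cover groups of unequal spread, such as the Q10 livers of 14 months. A gene stands for its 1-symbol probe set with the greatest mean over the 72 arrays. Values per array are given for up to 12 called members with the greatest change and separate groups, for the first called member of each role group and, without calls, for those with the smallest p. Other genes were named where called or among the 3 with the smallest p of their list, and some further members were named after their values were seen. The members and lists were chosen with earlier results of these data known. Array numbers were not taken to pair samples: residuals of same-numbered arrays of a tissue correlated between -0.28 and 0.17, and those of the same diet, duration and number in 2 tissues between -0.17 and 0.36, with 3 of 18 pairs over 0.1 between liver and heart. Alternatives were other normalizations, offsets, filters and probe sets, array weights, no trend, a replicate block, the Actb ratio as a covariate, fits on fewer arrays and, chosen after seeing the data, leaving out pairs of arrays in tissues other than liver and in comparisons over time.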

Additional observations from a re-analysis of the deposited data

Results flagged for a closer look

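The 3 differences between groups that follow were set apart by a test of the difference itself. In liver, the effect of Q10 against control differed between 14 and 6 months for 28 of 36 tested members (limma, adjusted p under 0.05), all of them greater after 14 months. The effect of Q10 against control after 14 months differed between liver and the mean of the other 3 organs for 24 of 34 members, all greater in liver. The difference between QH2 and Q10 after 14 months was likewise greater in size in liver for 24 of 34. These 3 results share the liver Q10 arrays of 14 months and are not independent of each other.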

How the results depend on the processing

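Leaving out 1 array at a time kept the liver calls after 14 months near their count: 31 to 34 for Q10 against control (33 with all arrays) and 31 to 33 for QH2 against Q10 (33), with 31 of the 33 called each time in both. It gave 1 to 2 for age on the control diet (3), 25 to 33 on Q10 (31), 0 to 1 on QH2 (0) and 8 to 33 for the Q10 effect between durations (28). In kidney it gave 0 to 16 for Q10 against control (0), 0 to 23 for QH2 against Q10 (9), 2 to 11 for age on control (9) and 14 to 23 on Q10 (20). In heart it gave 0 to 13 for Q10 against control (0), 0 to 16 for QH2 against Q10 (0), 0 to 6 for the Q10 effect between durations (0), 7 to 22 for age on Q10 (16) and 0 to 2 on QH2 (1). In brain it gave 6 to 11 for age on control (12), 9 to 11 on Q10 (12), 4 to 9 on QH2 (8), 0 to 2 for Q10 against control (0) and 0 to 1 for QH2 against Q10 (0) after 14 months. Over the 72 arrays it gave 30 to 31 for liver against the other tissues (31), 27 to 32 for kidney (30), 23 to 25 for heart (27), 29 to 32 for brain (31), 16 to 27 for the Q10 effect of liver minus other tissues (24) and 15 to 29 for QH2 against Q10 there (24). The remaining comparisons stayed at 0.

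Other settings changed these counts. Counts under other settings or without single arrays, here and above, stand without the share of all probe sets called. They do not tell whether the members or all probe sets gained or lost calls. With the Actb ratio as a covariate, liver had 0 for Q10 against control, 0 for QH2 against Q10, 0 for the Q10 effect between durations, 1 for age on control and 9 on Q10; kidney had 1 for Q10 against control, 14 for QH2 against Q10 and 14 for age on control; heart had 1 for Q10 against control and brain 4 for age on control. With array weights, age on QH2 gave 1 in liver and 1 in kidney, where Q10 against control gave 2, QH2 against Q10 22 and age on control 14, and heart gave 16 for Q10 against control and 15 for QH2 against Q10. With arrays scaled to one trimmed mean, age on QH2 gave 1 in liver and 1 in kidney. Without the filter, heart gave 2 for Q10 against control and 0 for age on QH2. With only the arrays compared, liver had 0 for Q10 against control, 0 for QH2 against Q10, 0 for age on Q10 and 1 on QH2, kidney 0 for QH2 against Q10 and 14, 13 and 2 for age on control, Q10 and QH2, and heart 10 and 0 for age on Q10 and QH2. Without the intensity trend, age on control gave 1 in liver and 5 in kidney, the liver Q10 effect between durations 8, kidney QH2 against Q10 0, and age in heart 10 on Q10 and 0 on QH2. On the values as deposited, liver had 0 for age on control and 2 for the Q10 effect between durations, kidney 1 for QH2 against Q10 and 3 for age on QH2, heart 14 for Q10 against control, 2 for QH2 against Q10 and 13, 34 and 12 for age on control, Q10 and QH2, and brain 14 for age on QH2; there the median of all probe sets moved with age in heart by 0.68, 0.96 and 0.75. Without Q10 arrays 2 and 3 of 14 months, liver had 0 for Q10 against control, 0 for QH2 against Q10, 0 for age on Q10 and 0 for the Q10 effect between durations, kidney 0 for QH2 against Q10 and 4 for age on Q10, heart 0 and brain 3 for age on Q10, and the 2 comparisons of liver with other tissues 6 and 7. Without kidney control arrays 1 and 3 of 14 months, age on control gave 0. Fewer arrays leave fewer degrees of freedom; for the other settings the cause was not tested.

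Some single genes turned sign. Without Q10 arrays 2 and 3 of 14 months, kidney age on Q10 was -0.189 for C1qa, -0.017 for C1qb, -0.026 for Tyrobp, -0.102 for Cd68 and -0.106 for Aif1, and heart age on Q10 -0.044 for Rac2 and -0.099 for Cd52. On the values as deposited, brain age was 0.217 for Csf1r on control and 0.175, 0.262 and 0.223 for P2ry12 on control, Q10 and QH2. Liver against the other tissues was then -0.232 for C1qa, -0.30 for C1qb, -0.070 for Fcer1g, -0.317 for Tyrobp, -0.004 for Fcgr1, -0.603 for Fcgr3, -0.483 for Cd68, -0.502 for Lgals3, -0.116 for Laptm5, -0.14 for Ncf1, -0.297 for Rac2, -0.712 for Cd53, -0.039 for Cd52, -0.226 for Itgb2 and -0.039 for Adgre1. Brain against the other tissues was 0.282 for C1qa, 0.047 for C1qb, 0.548 for Tyrobp, 0.842 for Fcgr1, 0.772 for Fcgr3, 0.60 for Cd68, 0.409 for Ncf1, 0.404 for Cd53 and 0.048 for Adgre1, and with a trimmed mean 0.157 for Fcgr1 and 0.071 for Fcgr3. With an offset of 16, heart against the other tissues was -0.117 for Msr1.

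A fit with the array number as a replicate block gave 33 for liver Q10 against control after 14 months and moved no count by more than 1.5 times; the numbers are not known to pair the samples. The limits are 3 arrays per group, organ RNA without sorted cells, cages that may follow the diets, Q10 arrays of 14 months that differ among themselves, and an RNA integrity ratio that moves with diet in liver. The labels give no date of hybridisation, so age and any difference in processing between the durations cannot be told apart. In heart the highest mean signal of an array was 138 after 6 months, and the lowest was 149 after 14 months. Signals near background, as for Trem2, Gpnmb and Itgam outside brain or heart, carry little information.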

Other observations

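Some genes outside the members, from the lists of macrophage regulators, Kupffer cells, monocytes and activation, also changed between 6 and 14 months on Q10 in kidney and heart. Of all probe sets, 27.9% were called in kidney (12.2% higher) and 10.6% in heart (5.06% higher). The genes named are examples of those called, and the number tested in each list is not given. They do not tell whether the lists exceeded these shares. In kidney, Csf2rb rose by 2.36 ± 0.58 (adjusted p = 0.0058), the chemokine receptor of monocytes Ccr2 by 1.96 ± 0.64 (adjusted p = 0.0295), the integrin chain Itgax of dendritic cells and macrophages by 2.00 ± 0.64 (adjusted p = 0.0262) and the protease inhibitor Cst7 by 3.08 ± 0.98 (adjusted p = 0.026). Slc40a1, the iron exporter ferroportin, fell there, at -0.37 ± 0.11 (adjusted p = 0.0223). In heart, Plac8 rose by 4.28 ± 0.71 (adjusted p = 0.00108), Hmox1 by 1.24 ± 0.25 (adjusted p = 0.00369) and Ctsz by 1.13 ± 0.22 (adjusted p = 0.00296), and Clec7a, a receptor for fungal glucans, fell, at -1.54 ± 0.31 (adjusted p = 0.00369). All are limma values on the log2 scale with their SE, and they rest on the same Q10 arrays of 14 months as the changes of the members.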
